A study of Mus musculus with 6 samples.

Results

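The genes described here are the fibroblast growth factor (FGF) ligands and receptors Fgf1, Fgf2, Fgf5, Fgf7, Fgf10, Fgf18, Fgf21, Fgfr1, Fgfr2 and Fgfrl1, chosen by symbol from gene-level RNA-seq counts. Of these 10 genes, 9 were found among the 28293 genes of the count files, 6 of them ligands and 3 receptors, and Fgf5 was not analysed here. The counts come from 6 libraries of poly(A)-selected RNA from a mouse dermal fibroblast cell line, 3 from cells labelled Lap2alpha KO (KO) and 3 from cells labelled wildtype (WT), all grown in DMEM with fetal calf serum, penicillin and streptomycin. No treatment, time or animal age is given. LAP2alpha is an isoform of lamina-associated polypeptide 2, made by the gene Tmpo, that partners A-type lamins inside the nucleus, and the study's title concerns chromatin organization and the place of those lamins on the genome. How the knockout was made, and whether each line is a single clone, is not given in the sources used here. Nor is it said whether replicates were separate cultures, so p-values measure the spread between these libraries, which may be technical, and any other difference between the lines cannot be told apart from the loss of LAP2alpha.

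FGFs are secreted factors that bind receptor tyrosine kinases on the cell surface together with heparan sulfate chains. A bound receptor pairs with another, phosphorylates docking proteins such as FRS2 and drives the RAS-ERK cascade, which in turn induces its own inhibitors. In skin, dermal fibroblasts are known as the source of FGF7 and FGF10, which act on a splice form of FGFR2 made by epithelial cells, while fibroblasts themselves respond to FGF2 mainly through FGFR1. FGFRL1 binds FGFs but lacks the kinase domain of the other receptors, and FGF21 is a hormone that needs the co-receptor beta-Klotho.

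The libraries held 25768678 to 27281473 counts in KO and 22159339 to 26553616 counts in WT. Tmpo averaged 129 ± 6.81 counts per 1000000 counts of the library (CPM) in KO and 252 ± 2.65 CPM in WT (SD, n = 3 each), summed over all LAP2 isoforms, so the alpha isoform was not measured by itself. Of 15081 genes that passed the low-count filter, 75.1% were called, meaning an adjusted p under 0.05 in the edgeR quasi-likelihood test with Benjamini-Hochberg adjustment over all tested genes. A call was therefore the usual outcome for a tested gene in this comparison. All 10 fibroblast markers (among them Col1a1, Col1a2, Pdgfra and Vim) reached 1 CPM in some library, and 9 were called higher and 1 lower in KO. The lower one was Thy1, which averaged 238 CPM in KO and 379 CPM in WT. Lum, among the 9 called higher, averaged 2.28 CPM in KO and only 0.0681 CPM in WT. It passed the low-count filter through KO alone, so its call was favoured by the filter. The summed level of the 10 markers was 22797 to 24230 CPM in KO and 6040 to 6416 CPM in WT. Col1a2 alone averaged 10955 CPM in KO and 1788 CPM in WT. The part of this shift in the FGF results was not tested. Markers of other cell types were low. Epcam, Ptprc and Mlana were at 0 in every KO library, and the summed levels were 4.49 to 6.27 CPM in KO and 6.63 to 8.39 CPM in WT for keratinocyte genes, and 4.50 to 4.53 CPM in KO and 1.5 to 1.94 CPM in WT for endothelial genes. Immune markers summed to 0.550 to 1.36 CPM in KO and 0.677 to 0.689 CPM in WT, melanocyte or Schwann markers to 5.61 to 7.99 CPM in KO and 2.56 to 4.24 CPM in WT, and adipocyte markers to 0.0377 to 0.155 CPM in KO and 0.0377 to 0.135 CPM in WT.

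In KO cells the receptor genes Fgfr1 and Fgfr2 and the ligand gene Fgf2 were higher than in WT cells, while the receptor gene Fgfrl1 and the ligand genes Fgf7 and Fgf10 were lower. Of the 9 genes analysed, 6 passed the low-count filter and 6 were called, 3 higher (37.7% of all tested genes) and 3 lower (37.5%), beside 75.1% called in either direction. For all 6 no KO library lay within the range of the WT libraries, which also held for 76.8% of tested genes. The changes were between 1.35-fold and 1.91-fold. In absolute size, the log2 fold changes of the 6 had a median of 0.81, and those of all tested genes a median of 0.58. Against a fold of 1.5, 4 of the 6 passed (Fgf2, Fgf7, Fgfr1 and Fgfrl1), beside 37.3% of all tested genes, of which Fgf2 and Fgfr1 were higher, beside 20.5% of tested genes, and Fgf7 and Fgfrl1 lower, beside 16.8%.

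**Figure D1:**
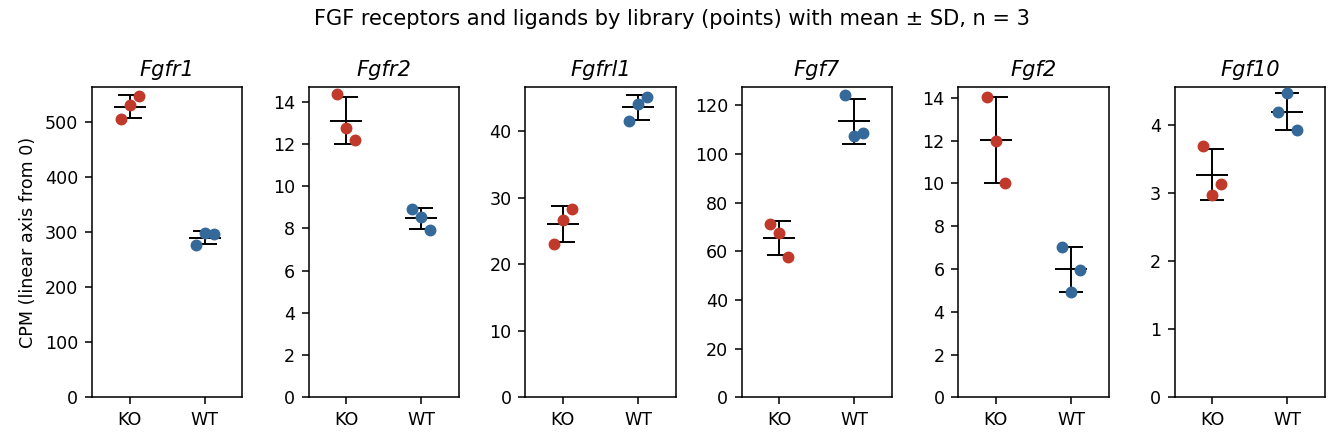
CPM of the 6 FGF genes that passed the low-count filter, on linear axes from 0, with KO left of WT. Points are libraries and bars are mean ± SD (n = 3). Fgfr1, Fgfr2 and Fgf2 lie higher in every KO library than in any WT library, and Fgfrl1, Fgf7 and Fgf10 lie lower.

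Fgfr1, which encodes the main FGF receptor of mesenchymal cells, was the most abundant of the receptor genes in both groups. It had 504, 530 and 547 CPM in the KO libraries, against 275, 297 and 296 CPM in the WT libraries. All 3 KO libraries were above the highest WT library. Fgfr1 was 1.73-fold higher in KO, a log2 fold change of 0.79 (edgeR adjusted p = 3.4e-07, SE 0.0543). The gene lies at chr8:25513654-25575718 on the plus strand of GRCm38, with 19 annotated transcripts.

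Fgfr2 was expressed at a much lower level. Its counts sum over the whole gene, with 27 annotated transcripts, and do not separate its splice forms. It had 14.4, 12.8 and 12.2 CPM in the KO libraries, against 8.94, 8.55 and 7.95 CPM in the WT libraries. The groups did not overlap, and KO replicate 1 held the highest value. Fgfr2 was 1.47-fold higher in KO, a log2 fold change of 0.55 (edgeR adjusted p = 3.7e-04, SE 0.0955), and it did not pass the test against a fold of 1.5 (edgeR adjusted p = 0.675). The annotation extends Fgfr2 from 130162451 to 133123350 on the minus strand of chromosome 7 and gives it 314 exonic bases in common with Ctbp2 on the same strand, 3.04% of its exonic length. Ctbp2 had 830, 782 and 723 counts in the KO libraries, against 885, 1010 and 955 counts in the WT libraries, while Fgfr2 had 1045 counts over the KO libraries and 621 over the WT libraries. How the counting assigned reads in the common bases is not given in the sources used here.

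Fgfrl1 moved the other way from the kinase receptors. It had 23.1, 26.6 and 28.3 CPM in the KO libraries, against 41.5, 44.0 and 45.2 CPM in the WT libraries. Every KO library was below every WT library. Fgfrl1 fell 1.77-fold, a log2 fold change of −0.82 (edgeR adjusted p = 4.6e-06, SE 0.0794). It lies at chr5:108692382-108706924 on the plus strand.

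Levels of different genes were compared per length, as CPM per kilobase of annotated exon (RPKM). Fgfr1 stood at 53.4 ± 2.17 RPKM in KO and 29.3 ± 1.23 RPKM in WT (SD, n = 3 each). Fgfrl1 stood at 9.34 ± 0.961 RPKM in KO and 15.7 ± 0.681 RPKM in WT, and Fgfr2 at 1.27 ± 0.109 RPKM in KO and 0.821 ± 0.0482 RPKM in WT. Within a library, Fgfr1 exceeded Fgfrl1 by 6.16, 5.60 and 5.45 times in KO, against 1.87, 1.90 and 1.84 times in WT. These genes were paired after their values were seen, so the ratio is given without a test.

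Fgfr1 made up 83.4 ± 0.564% of the summed RPKM of the 3 receptor genes in KO and 64.0 ± 0.315% in WT (SD, n = 3 each). Fgfrl1 made up 14.6 ± 0.832% in KO and 34.2 ± 0.361% in WT. For each of these shares the groups did not overlap and the two-sided exact permutation test gave p = 0.1, the smallest that 3 against 3 libraries can give (0.225 after Benjamini-Hochberg adjustment over 9 shares). Both are parts of a common sum, so these results are not independent. Their separation follows from Fgfr1 being higher and Fgfrl1 lower in every KO library. The share of Fgfr2 was 1.99 ± 0.269% in KO and 1.80 ± 0.173% in WT, with overlapping libraries (exact permutation p = 0.5, adjusted 0.563). The summed receptor level was 64.0 ± 3.02 RPKM in KO and 45.8 ± 1.84 RPKM in WT.

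**Figure D2:**
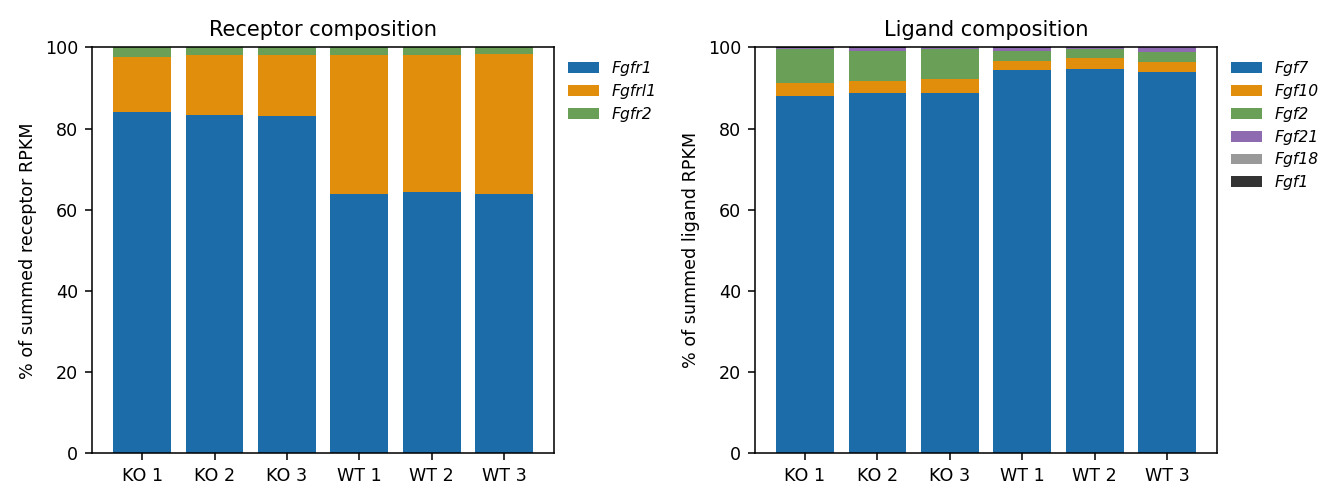
Composition of FGF receptor transcripts (left) and FGF ligand transcripts (right) in each library, as percent of the summed RPKM, with the 3 KO libraries left of the 3 WT libraries. Fgfr1 fills 83.0 to 84.1% of the receptor sum in KO and 63.8 to 64.4% in WT. Fgf7 fills 88.1 to 88.8% of the ligand sum in KO and 93.9 to 94.7% in WT.

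Among the ligands Fgf7, keratinocyte growth factor, was the most abundant per length of exon. It had 71.3, 67.5 and 57.6 CPM in the KO libraries, against 124, 107 and 109 CPM in the WT libraries. All KO libraries were below all WT libraries. Fgf7 fell 1.83-fold, a log2 fold change of −0.87 (edgeR adjusted p = 5.2e-06, SE 0.0853). It lies at chr2:126034658-126091185 on the plus strand.

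Fgf10, which signals through the same form of Fgfr2 as Fgf7, was low and changed less. It had 3.70, 2.98 and 3.14 CPM in the KO libraries, against 4.20, 4.48 and 3.93 CPM in the WT libraries. The highest KO library lay just below the lowest WT library. Fgf10 was 1.35-fold lower in KO, a log2 fold change of −0.44 (edgeR adjusted p = 0.0152, SE 0.139). This call was lost in the DESeq2 Wald test (adjusted p = 0.0524), in edgeR without KO replicate 2 (adjusted p = 0.0566) and in edgeR without WT replicate 2 (adjusted p = 0.0647).

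Fgf2, a mitogen for fibroblasts that leaves the cell without a signal peptide, rose. It had 14.04, 11.99 and 10.01 CPM in the KO libraries, against 7.04, 4.93 and 5.96 CPM in the WT libraries. The lowest KO library was above the highest WT library, and the KO libraries were spread widely. Fgf2 was 1.91-fold higher in KO, a log2 fold change of 0.94 (edgeR adjusted p = 2.5e-04, SE 0.153). It lies at chr3:37348346-37410108 on the plus strand, and 640 bases (9.44%) of its exonic sequence lie opposite exons of Nudt6, and 255 bases (3.76%) are also annotated to Gm43439 on the same strand, which was not analysed here. Nudt6 had 46, 38 and 32 counts in the KO libraries, against 24, 27 and 43 counts in the WT libraries. Fgf2 had 383, 318 and 258 counts in the KO libraries, against 156, 131 and 147 counts in the WT libraries. The library kit keeps strand, but the strand setting of the counting is not given in the sources used here.

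Fgf1, Fgf18 and Fgf21 did not pass the low-count filter. Fgf21 had 1, 4 and 1 counts in the KO libraries, against 6, 4 and 10 counts in the WT libraries. Per library total, its level in KO was 0.277 of that in WT (exact 95% interval 0.0909 to 0.714, counting error only), with overlapping libraries. In a fit without the filter Fgf21 was called lower (log2 fold change −1.89, edgeR adjusted p = 0.0210, SE 0.718). That fit called 12588 of 28293 genes, and its p-values do not compare with those of the main fit. For Fgf7 the edgeR adjusted p was 1.3e-35 without the filter and 5.2e-06 in the main fit. Fgf1, which can bind all FGF receptors, had 3, 6 and 0 counts in the KO libraries, against 4, 0 and 0 counts in the WT libraries. Its ratio of KO to WT was 2.07 with an exact 95% interval of 0.579 to 9.22, so no difference was detectable at this depth. Fgf18, a ligand known from bone and cartilage, had 2 counts over the KO libraries and 1 over the WT libraries, below the floor of 3 counts per group, and no ratio is given.

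**Figure D3:**
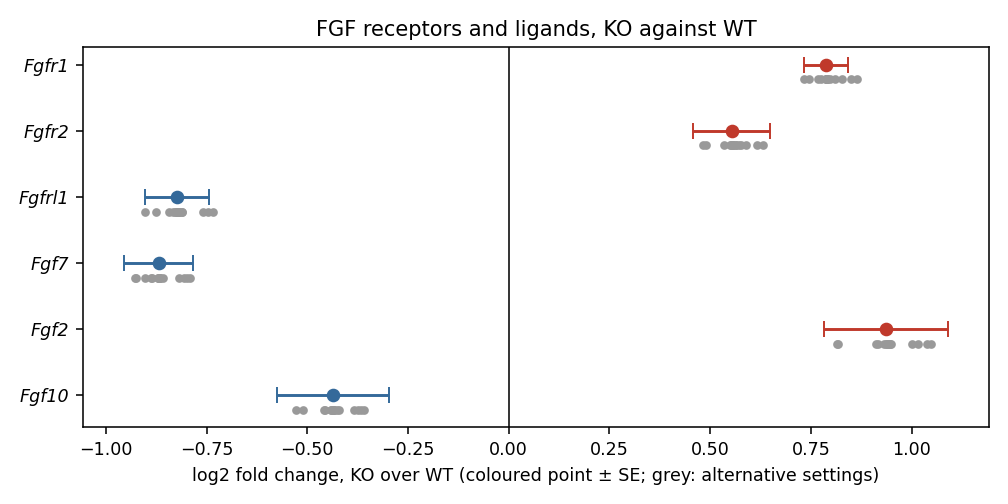
Log2 fold change, KO over WT, of the 6 tested FGF genes. Coloured points with bars are the edgeR estimate ± SE, and grey points are the values under alternative settings. Fgfr1 (0.79), Fgfr2 (0.55) and Fgf2 (0.94) lie right of 0 and Fgfrl1 (−0.82), Fgf7 (−0.87) and Fgf10 (−0.44) left of it at every setting.

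In both groups Fgf7 held most of the summed ligand level and Fgf2 came next in KO. Fgf7 made up 88.6 ± 0.414% of the summed ligand RPKM in KO and 94.3 ± 0.372% in WT, and Fgf2 made up 7.75 ± 0.488% in KO and 2.37 ± 0.255% in WT (SD, n = 3 each; two-sided exact permutation p = 0.1 for each, adjusted 0.225). As for the receptors, the shares of Fgf7 and Fgf2 are parts of a common sum and not independent results. Fgf10 made up 3.14 ± 0.336% in KO and 2.48 ± 0.276% in WT, with overlapping libraries (exact permutation p = 0.2, adjusted 0.3). Fgf1, Fgf18 and Fgf21 each made up under 1% of the mean ligand sum in either group (exact permutation p = 0.7, 0.4 and 0.2). The ratio of Fgf7 to Fgf2 was 10.6, 11.8 and 12.02 in the KO libraries, against 36.8, 45.5 and 38.1 in the WT libraries. The summed ligand level was 22.8 ± 2.54 RPKM in KO and 37.0 ± 3.03 RPKM in WT.

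In KO the order of levels per length was Fgfr1, Fgf7, Fgfrl1, Fgf2, Fgfr2, Fgf10, Fgf21, Fgf18 and Fgf1, and the ranges of the first 7 did not overlap. Fgf21, Fgf18 and Fgf1 could not be ordered among themselves at the few counts given above. In WT Fgf7 came first at 34.9 ± 2.85 RPKM, followed by Fgfr1 and Fgfrl1, and Fgf10, Fgf2 and Fgfr2 could not be ordered because their ranges overlapped. The first place in WT depended on the length used. With the median length of a gene's protein-coding transcripts in place of all exons, Fgfr1 stood above Fgf7 in both groups, at 139 ± 5.66 against 26.4 ± 2.85 RPKM in KO and 76.4 ± 3.21 against 45.7 ± 3.73 RPKM in WT. The share of Fgf2 depended on it most, since its coding transcripts have a median length of 535 bases and its exons together 6782 bases. With the shorter length Fgf2 made up 44.9 ± 1.65% of the ligand sum in KO and 19.1 ± 1.71% in WT, and the summed ligand level was 49.9 ± 6.69 RPKM in KO and 58.3 ± 5.71 RPKM in WT, with overlapping libraries. Fgf7 and Fgf2 then overlapped in KO, where Fgf2 stood at 22.5 ± 3.76 RPKM. Fgf2 also overlapped Fgfrl1 there, at 18.9 ± 1.94 RPKM. In WT, with the shorter length, Fgf2, Fgfr2 and Fgf10 no longer overlapped, at 11.2 ± 1.97, 3.69 ± 0.217 and 1.02 ± 0.0666 RPKM. The difference in the share of Fgf10 turned round, with 1.61 ± 0.180% in KO and 1.77 ± 0.232% in WT, also with overlapping libraries.

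The genes closest in level to Fgf7 over the 6 libraries, by Euclidean distance in log2(RPKM + 0.1) among 12113 tested protein-coding genes, were Dhx9, an RNA helicase gene (distance 0.183), Lin7c (0.194) and Ipo7, which encodes a nuclear import receptor (0.215). Dhx9 stood at 19.7 ± 1.26 RPKM in KO and 33.2 ± 1.34 RPKM in WT. The genes closest to Fgfr1 were Ehd2, a membrane-trafficking gene (0.145), Leprot (0.175) and Sh3bgrl3 (0.203). Ehd2 stood at 55.6 ± 1.58 RPKM in KO and 30.3 ± 0.925 RPKM in WT. Neighbours were picked on the same KO and WT values, so a similar difference between the groups is built into the choice.

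The windows of 250 bases before the transcription start of Fgf7, Fgfrl1 and Fgfr2 are shown because Fgf7 and Fgfrl1 fell by similar amounts while Fgfr2 rose. The start sites, and so the windows, come from RefSeq on GRCm38.p6 and are given in the direction of transcription. The table held windows for 8 of the 10 genes. Capitals mark matches, on either strand, to the TATA box TATAAA, the CCAAT box CCAAT, the GC box GGGCGG, the AP-1 motif TGANTCA, the ETS motif CCGGAAGT and the E-box CACGTG. None of the 3 windows overlaps a GENCODE M21 exon, although the Fgfrl1 and Fgfr2 windows lie inside the longest annotated extent of their genes.
Fgf7, chr2:126034408-126034657, plus strand: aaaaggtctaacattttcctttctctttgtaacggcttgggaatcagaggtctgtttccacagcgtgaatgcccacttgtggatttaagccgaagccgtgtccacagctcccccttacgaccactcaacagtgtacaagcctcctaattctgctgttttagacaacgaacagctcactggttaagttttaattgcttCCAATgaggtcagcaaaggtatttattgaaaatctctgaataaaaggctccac
Fgfrl1, chr5:108693979-108694228, plus strand: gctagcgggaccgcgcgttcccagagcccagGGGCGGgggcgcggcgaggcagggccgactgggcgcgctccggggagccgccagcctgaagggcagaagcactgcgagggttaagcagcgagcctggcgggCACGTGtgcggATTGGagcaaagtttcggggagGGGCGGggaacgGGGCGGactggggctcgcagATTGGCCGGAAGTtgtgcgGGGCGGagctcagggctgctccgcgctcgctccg
Fgfr2, chr7:130266809-130267058, minus strand: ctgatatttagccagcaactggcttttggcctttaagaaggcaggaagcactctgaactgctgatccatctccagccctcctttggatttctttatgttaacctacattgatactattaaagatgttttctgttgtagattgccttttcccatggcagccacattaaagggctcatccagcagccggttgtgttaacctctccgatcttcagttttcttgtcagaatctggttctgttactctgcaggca
Base composition was 43.6% G and C for Fgf7, 73.6% for Fgfrl1 and 44% for Fgfr2. The median of all 32851 windows in the table was 52.4%. Fgf7 held 1 CCAAT match, Fgfrl1 held 4 GC box, 2 CCAAT, 1 ETS and 1 E-box match, the last CCAAT match running directly into the ETS match, and Fgfr2 held none of the motifs. Of all windows 33.8% held a CCAAT box, 32.7% a GC box, 12.4% a TATA box, 6.75% an AP-1 motif, 6.02% an E-box and 2.88% the ETS motif. A match describes the sequence and is not evidence of binding.

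The rest of the FGF pathway was read through 5 lists of 75 genes, of which 55 were tested, and 18 were called higher, 31 lower and 6 not called. The share called was 89.1%, beside 75.1% of all tested genes, and the median log2 fold change was −0.25, beside 0.01 for all tested genes. In all tested genes 37.7% were called higher and 37.5% lower. Scaling by library totals gave 20 higher and 27 lower in the lists, and 6181 higher and 5139 lower over all tested genes. Scaling by upper quartiles gave 20 higher and 29 lower in the lists, and 6090 higher and 5223 lower over all tested genes. Against a fold of 1.5, 8 of the 55 were called higher and 15 lower, beside 20.5% and 16.8% of all tested genes. Of the 55 genes, Fgf11, Fgfbp1, Sulf2 and Hpse reached the level of the low-count filter (0.382 CPM) in every library of only 1 group, so each was tested because it was high in that group. Among the other 51 genes 17 were called higher and 28 lower in the main test, with a median of −0.23 on the log2 scale. The counts against a fold of 1.5 were not repeated without Fgf11, Fgfbp1, Sulf2 and Hpse. Of these, Fgf11, Fgfbp1 and Hpse were among the 15 called lower there. The 6 tested ligand and receptor genes reached the filter level in every library.

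**Figure D4:**
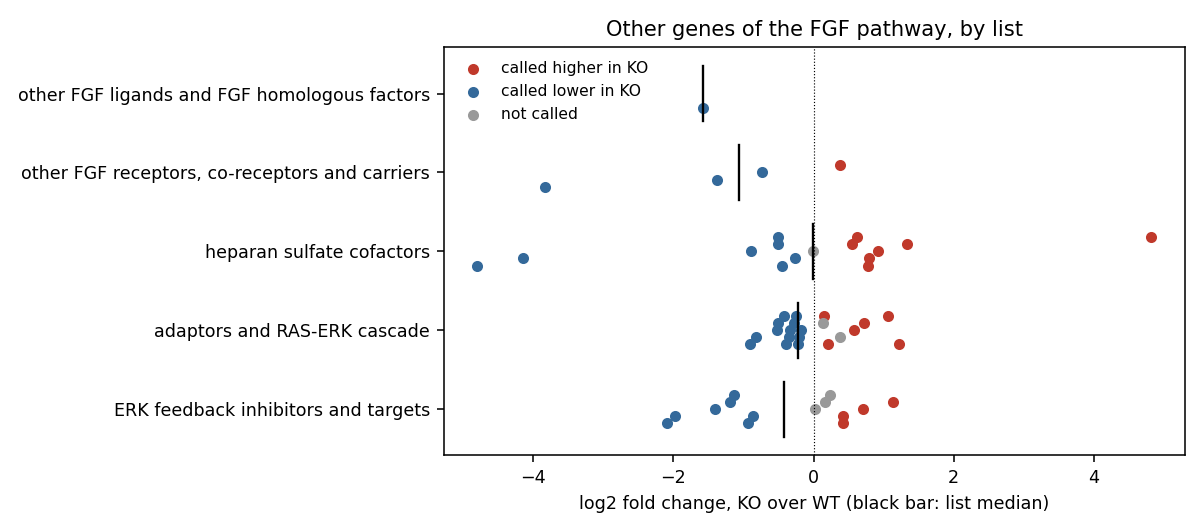
Log2 fold change, KO over WT, of the tested genes of the 5 FGF pathway lists. Each point is a gene, coloured by its call, and black bars are list medians. The genes called lower in the feedback list lie between −0.87 and −2.09, and those of the heparan sulfate list lie on both sides of 0. The point farthest right, Sulf2, rests on 4 WT counts.

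Genes induced by ERK signalling and genes that restrain it went both ways, with more called lower than higher. Of 14 tested, 7 were called lower, 4 higher and 3 not called, and the list had a median of −0.43 on the log2 scale. The 78.6% called in this list is close to the 75.1% of all tested genes. Against a fold of 1.5, 7 of the 14 were called lower and 1, Il17rd, higher, beside 16.8% and 20.5% of all tested genes. Spry1, a Sprouty inhibitor of receptor tyrosine kinase signalling, had 4.51, 3.58 and 4.39 CPM in the KO libraries, against 16.7, 15.9 and 18.0 CPM in the WT libraries. All KO values were far below all WT values (log2 fold change −2.09, edgeR adjusted p = 4.1e-08, SE 0.108). Dusp4, an ERK phosphatase, averaged 48.5 ± 1.99 CPM in KO and 105 ± 3.88 CPM in WT, and Etv4, an ETS transcription factor induced by FGF signalling, averaged 19.9 ± 0.542 CPM in KO and 41.3 ± 1.61 CPM in WT. Dusp6, an ERK phosphatase induced by FGF signalling and named after its value was seen, averaged 8.06 ± 0.817 CPM in KO and 20.2 ± 0.487 CPM in WT (log2 fold change −1.40). The other genes called lower, also named after their values were seen, were Dusp5 (−1.98), Spry4 (−0.94) and Etv5 (−0.87).

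The members that rose in that list included inhibitors too. Il17rd, which encodes the FGF signalling inhibitor Sef, averaged 33.8 ± 2.60 CPM in KO and 14.5 ± 1.03 CPM in WT (log2 fold change 1.14, edgeR adjusted p = 4.5e-07, SE 0.0815). Spred3, of the Spred family of RAS-ERK inhibitors, rose by 0.71 on the log2 scale, and the immediate early gene Egr1 rose by 0.43. Spry2, named after its value was seen, rose by 0.42. Spred1 (0.17), Spred2 (0.01) and Etv1 (0.23) were not called. Spred1 was called higher in edgeR with scaling by library totals (adjusted p = 0.0234) or upper quartiles (adjusted p = 0.0278) and without WT replicate 1 (adjusted p = 0.0463).

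The adaptor and RAS-ERK list held 6 genes called higher, 13 lower and 2 not called, and the list had a median of −0.23 on the log2 scale. The share called was 90.5%, beside 75.1% of all tested genes, of which 37.7% were higher and 37.5% lower. The excess of lower calls depended on the setting. Scaling by library totals gave 7 higher and 9 lower, and scaling by upper quartiles 7 higher and 11 lower. Fits that left out 1 library gave 4 to 6 higher and 11 to 13 lower. The test against a fold of 1.5 gave 3 higher and 2 lower of 21, beside 20.5% and 16.8% of all tested genes. The adaptor genes Frs2, Shc1 and Gab1 were higher, while Grb2 (−0.18), Crk (−0.34) and Crkl (−0.20), named after their values were seen, were lower. Frs2, the main docking protein of FGF receptors, averaged 82.7 ± 5.22 CPM in KO and 37.4 ± 3.52 CPM in WT (log2 fold change 1.07, edgeR adjusted p = 3.9e-07, SE 0.0751). Shc1 averaged 203 ± 4.17 CPM in KO and 82.3 ± 3.22 CPM in WT (log2 fold change 1.22), and Gab1 rose by 0.72. Among the lower genes were Hras (−0.91), which encodes a RAS GTPase, and Ptpn11 (−0.51), which encodes the phosphatase SHP2. The adaptor gene Frs3 (0.38) was among the genes not called.

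Heparan sulfate cofactors went both ways, with 7 higher, 7 lower and Ext2 not called (−0.0062), which also was the median of the list. The share called was 93.3%, beside 75.1% of all tested genes. Without Sulf2 and Hpse, which reached the filter level in every library of only 1 group, 6 were higher and 6 lower. Sulf1 (−4.80), which trims sulfate from heparan sulfate, and the sulfotransferase gene Hs6st2 (−0.89) were lower. Hpse, which cleaves the chains, had 15, 9 and 17 counts in the KO libraries, against 190, 235 and 214 counts in the WT libraries. Hpse was at the filter level in all 3 WT libraries but in only 2 KO libraries, and no fold is given. Sdc2, a cell-surface heparan sulfate proteoglycan, had 465, 434 and 404 CPM in the KO libraries, against 172, 160 and 157 CPM in the WT libraries. All KO libraries were above all WT libraries (log2 fold change 1.34, edgeR adjusted p = 2.6e-08, SE 0.0644). Ndst1, which modifies the chains, and Gpc1, another proteoglycan, rose by 0.79 and 0.77. Sulf2, a relative of Sulf1 named after its value was seen, had 64, 40 and 37 counts in the KO libraries, against 2, 2 and 0 counts in the WT libraries. Sulf2 passed the low-count filter through KO alone, and no fold is given.

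Among other receptors, co-receptors and carriers, 4 of the 8 genes analysed were tested, with 3 called lower and 1 higher. The share called was 100% of these 4, beside 75.1% of all tested genes. Fgfbp1 passed the filter through WT alone, and without it 2 were lower and 1 higher. Fgfbp1, whose protein releases FGFs from the matrix, had 0.0733, 0.151 and 0 CPM in the KO libraries, against 1.04, 1.05 and 1.14 CPM in the WT libraries. KO held only 6 counts in all, against 79 counts in WT, and no fold is given. Fgfbp3 averaged 2.43 ± 0.350 CPM in KO and 6.04 ± 0.444 CPM in WT (log2 fold change −1.38). Of the membrane proteins that bind FGF receptors, Flrt2 fell by 0.73 and Flrt3 rose by 0.37 on the log2 scale. The kinase receptor genes Fgfr3 and Fgfr4 and the co-receptor gene Klb did not pass the filter, and Fgfr3 had 14 counts over KO and 25 over WT. Of the other ligands and the FGF homologous factors, which stay inside the cell, 7 of 15 were analysed and 1 was tested. That gene, Fgf11, passed the filter through WT alone and was not tested with a filter of at least 1 CPM. It had 5, 4 and 6 counts in the KO libraries, against 10, 15 and 15 counts in the WT libraries. Fgf14, an FGF homologous factor gene named after its value was seen, went the other way at similarly low counts. It had 6, 10 and 8 counts in the KO libraries, against 1, 1 and 3 counts in the WT libraries. Fgf14 was called higher in the fit without the low-count filter (edgeR adjusted p = 0.0153), whose p-values do not compare with those of the main fit.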

How the data were processed

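RNA from 6 libraries was sequenced after poly(A) enrichment and directional library preparation, per the labels' protocols. The authors aligned reads with STAR 2.7.10b to GRCm38, per the submitters' processing notes, and deposited raw counts per Ensembl gene, 1 file per library. No source used here names the counting program, its annotation or its strand setting, so reads of overlapping genes may be shared. The counts were used unchanged. Of 28293 gene IDs, 28230 were found in GENCODE M21 (GRCm38), which gave symbols, positions and lengths.

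Differences between KO and WT were tested with edgeR 4.0.16 in R 4.3.3 (TMM, filterByExpr, quasi-likelihood test, Benjamini-Hochberg adjustment over 15081 genes). SE is the absolute log2 fold change divided by the square root of F. CPM uses library totals, and fold changes use TMM scaling. Alternatives were DESeq2 1.42.0, limma-voom 3.58.1, other scalings and filters, a test against a fold of 1.5, the replicate number as a block and leaving out each library. On simulated data the edgeR fit recovered 22.4% of changes of 1.25-fold, 61.7% of 1.5-fold, 90% of 2-fold and 96% of 4-fold, with 4.32% false calls. Only 47 to 50 of 14849 genes were changed per fold there. In the data 75.1% of tested genes were called, so the simulation does not test the scaling under so wide a change. A floor of 3 counts per group and exact 95% Clopper-Pearson intervals cover counting error only. No library was identical to another.

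The genes and lists were chosen with earlier results of these data known. Named beside the FGF genes are Tmpo, up to 3 called genes per list and direction with the smallest p, uncalled genes where a list has 5 or fewer, the 3 nearest genes in level, and opposite-strand overlaps. Some items that this rule names are not reported here. Python 3.11.15 and matplotlib 3.10.9 drew the figures.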

Additional observations from a re-analysis of the deposited data

How the results depend on the processing

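The log2 fold changes of Fgf2, Fgf7, Fgf10, Fgfr1, Fgfr2 and Fgfrl1 kept their direction in all 15 alternatives, with ranges of 0.82 to 1.05, −0.93 to −0.79, −0.53 to −0.36, 0.73 to 0.86, 0.48 to 0.63 and −0.90 to −0.74. Among these 6 genes, calls were lost only for Fgf10, as given above, and for Fgf10 and Fgfr2 against a fold of 1.5, a stricter hypothesis by construction. That test called 3094 genes higher and 2527 lower over all genes, and 8 higher and 15 lower in the pathway lists, including genes tested through 1 group alone. Ext2, not called, changed sign with a filter of at least 1 CPM (0.0044), library totals alone (0.071), upper-quartile scaling (0.057) and in leave-one-out fits (−0.072 to 0.041), and Spred2, not called, with no low-count filter (−0.0049) and in leave-one-out fits (−0.060 to 0.075); the cause was not tested. Library totals alone moved the median log2 fold change of all genes to 0.09. Same-numbered KO and WT libraries did not deviate together throughout (r = 0.12, −0.10 and 0.13 across 15081 genes, which are not independent replicates), and not every library correlated best with its own number. The fit with a replicate block called 11697 genes, against 11330 without it, and the same 3 FGF genes higher and 3 lower, and it called Spred1 higher (0.16, edgeR adjusted p = 0.0086). Counting only pathway genes at the filter level in both groups was chosen after seeing the data. Depth limits Fgf1, Fgf18 and Fgf21, for which 3 counts over a group correspond to 0.0377 CPM in KO and 0.0409 CPM in WT.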
